A study of Homo sapiens with 4 samples.

Results

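The difference of the radiation response between SW1990 and PANC-1 cells was measured gene by gene. For each gene, the log2 fold change of the irradiated over the unirradiated library in PANC-1 was subtracted from that in SW1990, so that a positive difference means a higher response in SW1990. Of 58174 table rows with an Ensembl gene identifier, 11159 had at least 50 counts in each of the 4 libraries and were compared, and 10245 of these were protein coding. The 47015 rows below this minimum were left out, and the compared rows took up 95.7% to 96.6% of each library.

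SW1990 and PANC-1 are established human pancreatic cancer cell lines, and each was sequenced once without radiation (0 Gy) and once after 10 Gy of X-rays. PANC-1 was grown in DMEM and SW1990 in another medium, so the effects of line and medium cannot be told apart, nor can a change in each cell from a change in the mix of cells. The time between radiation and RNA collection is not given in the sources used here. The libraries were made from total RNA with an mRNA kit, while the sample records name removal of ribosomal RNA. They held 17851815 (SW1990, unirradiated), 18305682 (SW1990, irradiated), 23323266 (PANC-1, unirradiated) and 20026595 (PANC-1, irradiated) counts on genes. With 1 library per condition the fit of line, radiation and their interaction leaves 0 residual degrees of freedom, so there is no replicate check of any difference below and no test. Intervals are 95% intervals from the counts, cover counting error only, and reached a median of 0.22 to either side on the log2 scale.

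The epithelial keratin gene KRT8 was at 2013 and 2815 CPM (counts scaled to library size by TMM) in SW1990 and at 1329 and 1419 CPM in PANC-1. KRT18 and KRT19 were at 256 CPM or more in each library. KRT7, another keratin gene, was low, at 5.15 and 5.39 CPM in SW1990 and at 6.77 and 4.95 CPM in PANC-1. EPCAM, an epithelial adhesion molecule, was at 383 and 399 CPM in SW1990 and at 5.04 and 5.77 CPM in PANC-1. CDH1, the epithelial cadherin, was at 516 and 758 CPM against 2.75 and 3.32 CPM. VIM, a mesenchymal filament gene, was at 0.885 and 0 CPM in SW1990 and at 3845 and 3839 CPM in PANC-1. None of the 11 blood and endothelial markers reached the minimum in all 4 libraries. CD3E was at 0 counts in each, and the highest counts were those of CD68, with 967 and 583 counts in PANC-1 and 31 and 37 in SW1990.

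Ionizing radiation breaks DNA, and damaged cells are known to switch on p53 targets that arrest the cycle or start apoptosis. The integrated stress response is a separate program, in which translation factor eIF2 is phosphorylated and ATF4 then drives genes of amino acid synthesis, transport and tRNA charging. YAP and TEAD proteins drive genes of growth and adhesion, and immediate-early genes answer growth factor and stress signals within a short time.

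Most genes responded little, and the measured fold changes of the lines were weakly correlated over genes. The log2 fold change had a median of 0.03 and an SD of 0.39 over genes in SW1990, and a median of -0.03 and an SD of 0.42 in PANC-1. Across the 11159 genes the responses of the lines had a Pearson r of 0.10 and a Spearman correlation of 0.14, as a description over genes, which are not independent replicates. Spread between cultures, which lowers such a correlation, cannot be measured with 1 library per condition, so how far the responses are shared was not tested. The difference had a median of 0.05 and an SD of 0.54, with 55.9% of genes above 0 and 44.1% below. In SW1990, 152 genes rose (1.36% of those compared) and 157 fell (1.41%) more than 2-fold, and in PANC-1, 145 rose (1.3%) and 196 fell (1.76%).

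A difference above 1 on the log2 scale, that is a factor of 2 between the responses, was found for 406 genes (3.64%), and a difference below -1 for 299 genes (2.68%). The response had opposite signs in the lines for 582 of these 705 genes, or 82.6%, beside 45.2% of all genes compared, which describes genes chosen for a large difference. The 406 genes with the higher response in SW1990 were at a median of 0.65 (SW1990) and -0.77 (PANC-1) in log2 fold change, and the 299 genes with the lower response had -0.67 and 0.72. In 53 genes the difference was above 2 and in 44 below -2. The balance between the directions depended on the scaling of the libraries: 57.6% of the 705 genes lay above 1, while scaling by total counts put 39% of 713 genes there, the upper quartile 50.1% of 702, and the deposited FPKM 38.5% of 819. Total counts moved the median difference of all genes from 0.05 to -0.09 and FPKM moved it to -0.08, so a list median by counts is to be read against 0.05 and a list median by FPKM against -0.08.

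The counting interval excluded 0 for each of the 705 genes. The choice of genes fixed this, since no interval reached more than 0.77 to either side. The interval lay wholly beyond 1 or -1 for 341 of them. Genes with few counts were called more often, 11% of the 1116 genes lowest in mean expression and 2.24% of the 1116 highest. At the count minimum, the SD of the difference was 0.95 in 340 rows whose lowest count was 40 to 49 and 0.85 in 286 rows with 50 to 59.

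**Figure D1:**
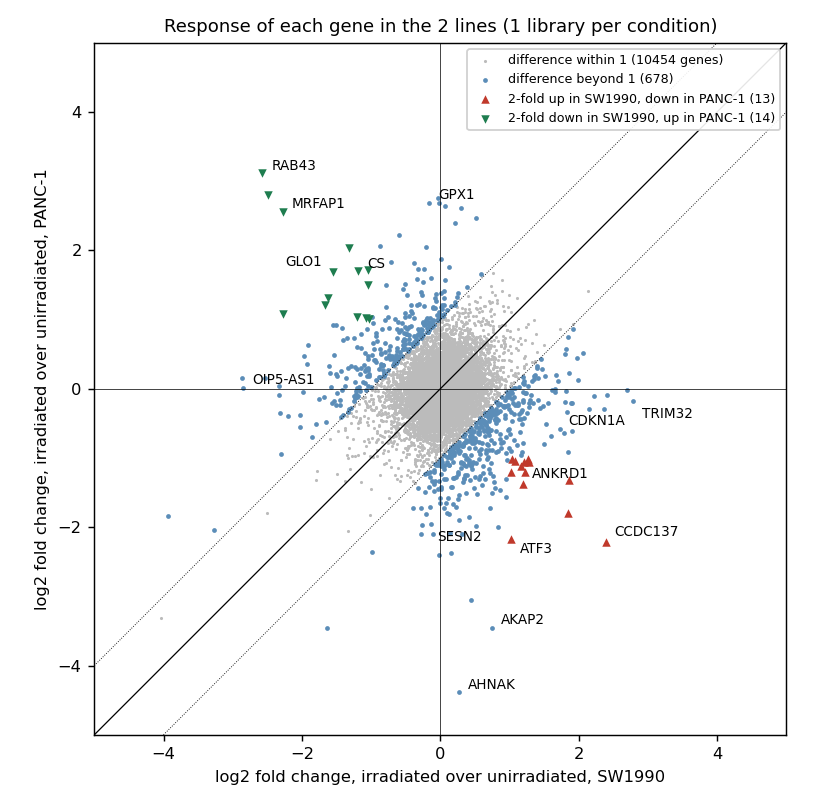
Log2 fold change after radiation in SW1990 (x axis) and PANC-1 (y axis) for 11159 genes, 1 point per gene; the solid line marks equal responses and the dotted lines a difference of 1 on the log2 scale. The 13 genes 2-fold up in SW1990 and down in PANC-1 lie at the lower right and the 14 genes with the reverse at the upper left.

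Genes that moved 2-fold in opposite directions were few. In total, 13 genes (0.116%) rose in SW1990 and fell in PANC-1: CCDC137, JRK, ATF3, RHOQ, ANKRD1, DCP2, FOXM1, TMEM177, SEC61A1, SYNE1, NABP2, ADI1 and MRPL34. The reverse was found for 14 genes (0.125%), among them RAB43, AC020915.6, MRFAP1, DDIAS, ZNF641, PPARA, GLO1, ATP5S, CS, GUCD1, RAB5B, NUDT4 and GSDMB. All 27 kept both directions under scaling by total counts, by DESeq2 size factors, by the upper quartile or by TMM within each line. These scalings shift all genes of a library alike and by less than 2-fold, so the choice of genes fixed this outcome. By FPKM, 26 of the 27 kept both directions, ATP5S being the exception, and 8 stayed beyond 2-fold in both lines. The 2-fold limit in each line was kept by 20 of the 27 under total counts and 23 under the upper quartile. Over all genes, total counts gave 6 genes up in SW1990 and 18 down, and the upper quartile 9 and 15, in place of 13 and 14. At a limit of 1.5-fold in each line there were 125 such genes, 77 up in SW1990 and 48 down.

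The widest opposite movement upward in SW1990 was in CCDC137 (ENSG00000185298, GRCh38 chr17:81666364-81673904, + strand), a coiled-coil protein gene. It stood at 6.98 CPM in unirradiated and 36.5 CPM in irradiated SW1990 cells, and at 41.1 and 8.89 CPM in PANC-1. The irradiated library was high in SW1990 and low in PANC-1, with log2 fold changes of 2.39 and -2.21 and a difference of 4.60 (4.24 to 4.95), which by FPKM was 2.78. ATF3 (ENSG00000162772, chr1:212565334-212620777), a stress-induced transcription factor, was at 21 and 42.5 CPM in SW1990 and at 61.8 and 13.7 CPM in PANC-1. Its difference was 3.19 (2.93 to 3.44), and FPKM gave 2.98. RHOQ, a small GTPase known for its part in glucose transporter traffic, rose from 5.31 to 19.2 CPM in SW1990 and fell from 22.7 to 9.14 CPM in PANC-1. ANKRD1, a TEAD target gene, rose from 4.84 to 11 CPM and fell from 86 to 33.1 CPM, so its irradiated level in PANC-1 stayed above both SW1990 libraries. FOXM1, a transcription factor of mitotic genes, was at 83.1 and 202 CPM in SW1990 and at 135 and 64.7 CPM in PANC-1. In the mitosis list 34 of 56 genes had a difference above 0, beside 55.9% of all genes, and the list median was 0.03 beside 0.05. SEC61A1, the pore of the endoplasmic reticulum translocon, was at 225 and 504 CPM in SW1990 and 367 and 169 CPM in PANC-1. By FPKM the log2 fold changes of SEC61A1 were 0.84 and -0.81, those of FOXM1 0.85 and -0.65, and those of JRK 0.51 and -0.48, inside the 2-fold limit in both lines. DCP2, the mRNA decapping enzyme, differed by 2.43 by counts and 1.31 by FPKM, and its FPKM changes of 0.84 and -0.47 were also inside the limit. NABP2, a single-strand DNA binding protein of damage repair, and SYNE1, a nuclear envelope spectrin repeat protein, differed by 2.23 and 2.27 by counts and 1.69 and 2.16 by FPKM.

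In the other orientation, MRFAP1 (ENSG00000179010, chr4:6640091-6642745, + strand), which overlaps no other expressed gene of the table, was at 168 and 34.6 CPM in SW1990 and at 21.8 and 128 CPM in PANC-1. Its counts were 3226, 655, 468 and 2513 in the same order. The unirradiated SW1990 and the irradiated PANC-1 library were high and the other pair low, with log2 fold changes of -2.28 and 2.56, a difference of -4.83 (-5.02 to -4.65), and -4.75 by FPKM. GLO1 (ENSG00000124767, chr6:38675925-38703141), which detoxifies methylglyoxal, was at 229 and 77.9 CPM in SW1990 and at 39.9 and 128 CPM in PANC-1, with a difference of -3.25 by counts and -3.37 by FPKM. CS, the citrate synthase that opens the citric acid cycle, was at 251 and 110 CPM and at 81.5 and 264 CPM, and differed by -2.89 (-2.99 to -2.78). By FPKM its difference was -1.89. The 76 nuclear genes of oxidative phosphorylation had a median difference of 0.06, beside 0.05 for all genes. Of them, 1 was above 1 and 0 below -1, beside 3.64% and 2.68% of all genes. DDIAS, an inhibitor of apoptosis after DNA damage, was at 25.8 and 10.3 CPM and at 11.3 and 46.4 CPM. RAB5B, a GTPase of early endosomes, was at 24.8 and 10.7 CPM and at 21.6 and 44.1 CPM. PPARA, a nuclear receptor of fatty acid oxidation, differed by -2.94 by counts and -0.80 by FPKM, and ZNF641, a zinc finger gene, by -3.35 and -1.25.

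The order of the lines turned over in most of these genes: in 24 of the 27 the line with the higher level without radiation had the lower level after it, which describes genes chosen for moving in opposite directions. In 9 of them, CCDC137, ATF3, RHOQ, CS, ZNF641, DDIAS, MRFAP1, AC020915.6 and RAB43, the gap was more than 2-fold on both sides. MRFAP1, for example, had a log2 ratio of SW1990 to PANC-1 of 2.94 without radiation and -1.89 after it. Of the 9 genes, RAB43 and AC020915.6 lost the 2-fold opposite movement when overlapping genes were summed.

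**Figure D2:**
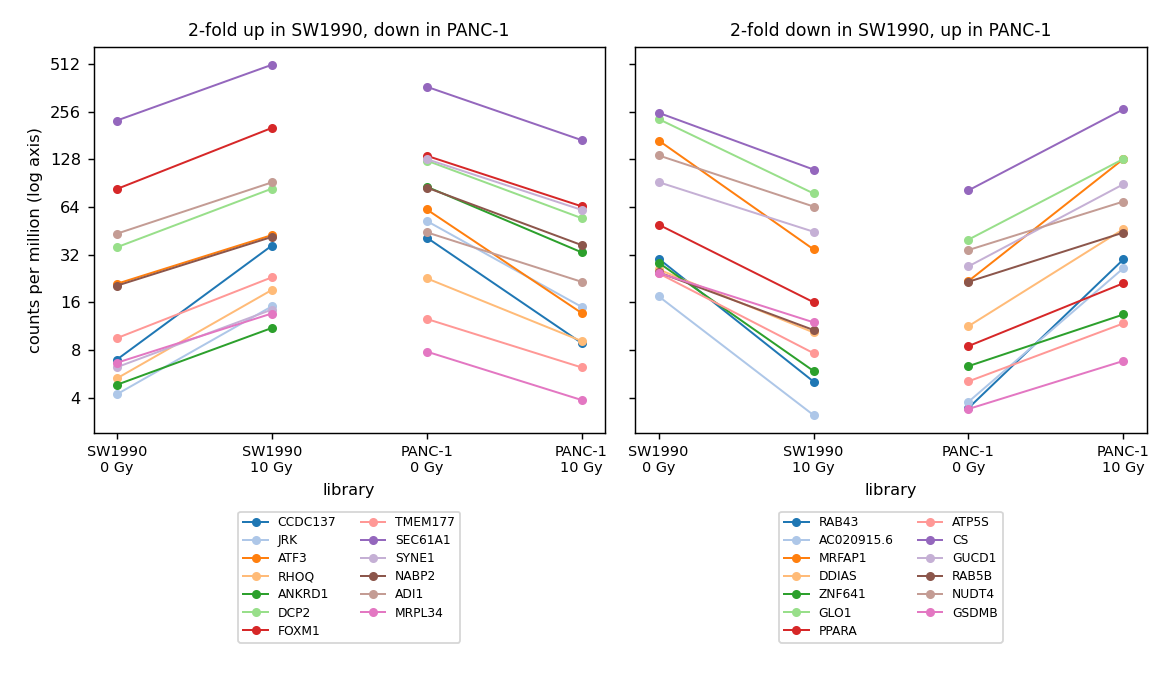
Level in CPM (log axis) of 26 of the 27 genes that moved 2-fold in opposite directions, in each of the 4 libraries, with a line joining the unirradiated and irradiated library of each cell line. The left panel holds the 13 genes up in SW1990 and down in PANC-1 and the right panel 13 of the 14 with the reverse; MRFAP1, GLO1 and CS run from high to low in SW1990 and from low to high in PANC-1.

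Some of the widest differences came with a change of counts between overlapping gene models. RAB43 (ENSG00000172780, chr3:129087569-129122801), a GTPase of Golgi traffic, had 580 and 96 counts in SW1990 and 74 and 585 in PANC-1, the widest difference of all genes at -5.69 (-6.16 to -5.22). The read-through gene ISY1-RAB43, which overlaps it on the same strand, had 0 and 340 counts in SW1990 and 330 and 0 in PANC-1. Summed, the pair had 580 and 436 counts in SW1990 and 404 and 585 in PANC-1, and the difference was -1.06. AC020915.6 went from -5.29 to 0.04 when it was summed with the 6 genes it overlaps on its strand, RPL36A-HNRNPH2 from 3.5 to -0.11 with RPL36A and HNRNPH2, and AP002990.1 from -3.01 to 0.19. AKAP2, an anchoring protein of protein kinase A, kept 4.16 of 4.19 after it was summed with its overlapping gene, and NFE2L2, the antioxidant transcription factor NRF2, kept 2.33 of 2.52. Among the 705 genes, 211 overlapped an expressed gene on the same strand, and 106 of these stayed beyond 1 or -1 with the same sign when summed. Of the 27 opposite movers 5 had such a partner, and 25 stayed 2-fold opposite, all but RAB43 and AC020915.6.

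Counts and FPKM, which the authors deposited side by side, did not always give the same difference. Of the 705 genes, 685 had the same sign by FPKM and 439, or 62.3%, were also beyond 1 or -1. AHNAK, a giant scaffold protein gene, had the largest difference above 0 by counts, 4.66, but 0.88 by FPKM. AK4, a mitochondrial adenylate kinase, differed by 2.51 by counts and -0.15 by FPKM, and FAM217B by 1.68 and -1.0. DMD, the dystrophin gene, differed by -0.32 by counts and -3.30 by FPKM, and MYO5B, a myosin of vesicle recycling, by 0.73 and 3.24. The ratio of the count to the FPKM in a library corresponds to a transcript length, and for AHNAK this length was 25246, 25346 and 25651 bases in 3 libraries and 2073 bases in irradiated PANC-1, beside 18787 bases for its longest annotated transcript. The largest differences were therefore named only where FPKM gave the same sign and a size beyond 1, which left out 3 genes among those with the largest positive and 2 among those with the largest negative differences.

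**Figure D3:**
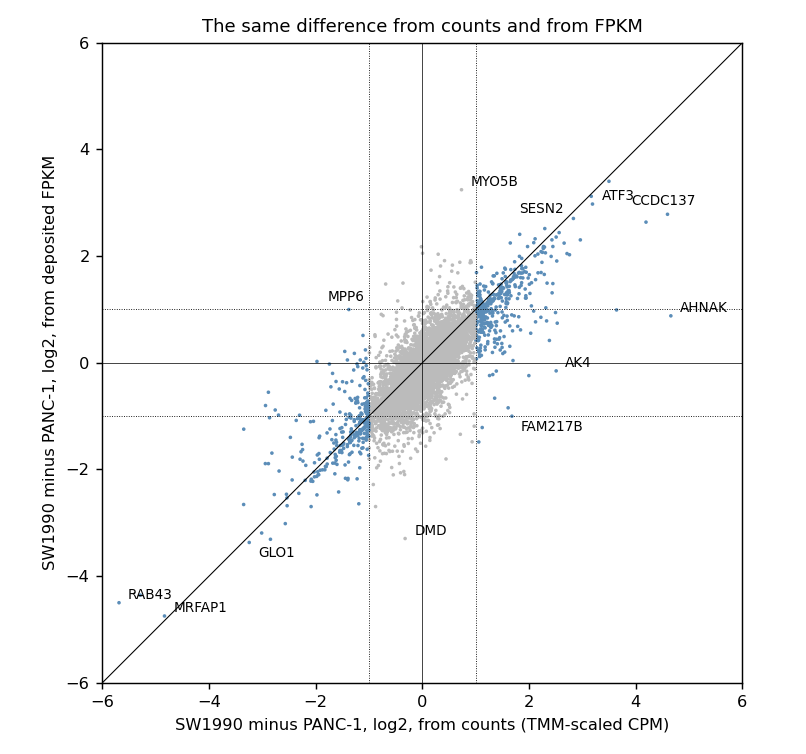
Difference of the response, SW1990 minus PANC-1, on the log2 scale from TMM-scaled counts (x axis) and from the deposited FPKM (y axis), 1 point per gene. The 705 genes beyond 1 or -1 by counts are blue; MRFAP1 and ATF3 lie close to the diagonal, while AHNAK and AK4 lie far below it.

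The largest differences by counts that FPKM also put beyond 1 or -1 included several genes past 2-fold by counts in 1 line only. TRIM32, a ubiquitin ligase, was at 6.35 and 43.6 CPM in SW1990 and at 32.7 and 28.8 CPM in PANC-1. C19orf53 was at 5.73 and 29.6 CPM and at 29.1 and 23.8 CPM. Both genes rose more than 2-fold in SW1990 and lay within 2-fold in PANC-1. Summed with its overlapping genes, C19orf53 had a difference of 1.13. AKAP2 fell in PANC-1, from 240 to 22 CPM, and was at 33.7 and 56.4 CPM in SW1990, with a difference of 2.64 by FPKM. GPX1 (ENSG00000233276, chr3:49357176-49358600), the cytosolic glutathione peroxidase, was at 37.5 and 33.5 CPM in SW1990 and rose from 18.4 to 118 CPM in PANC-1, with a difference of -2.85 by counts and -3.31 by FPKM. SPRY1, a feedback inhibitor of growth factor signalling, was at 7.65 and 4.17 CPM and rose from 5.88 to 24.7 CPM in PANC-1, a difference of -2.94 by counts and -1.89 by FPKM. FN3KRP, a kinase of glycated proteins, was at 15.8 and 10.4 CPM and rose from 7.93 to 37 CPM, a difference of -2.82 by counts and -1.69 by FPKM. OIP5-AS1, a long noncoding RNA, fell from 119 to 16.4 CPM in SW1990 and was at 104 and 105 CPM in PANC-1. OIP5-AS1 overlaps OIP5, and its difference was -2.87 by counts and -1.03 by FPKM. By FPKM its log2 fold changes were -0.88 in SW1990 and 0.15 in PANC-1, within 2-fold in both lines.

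Among the gene lists, integrated stress response genes had the largest median difference above 0. Of 42 listed genes 39 were compared, and 38 had a higher response in SW1990 than in PANC-1, all but ALDH18A1, beside 55.9% of all genes. The median difference was 0.74, beside 0.05 for all genes, from a median response of -0.05 in SW1990 and -0.83 in PANC-1. In PANC-1, 37 members had a log2 fold change below 0, beside 53.7% of all genes, and 15 fell more than 2-fold, beside 1.76%. In SW1990, 15 members had a log2 fold change above 0, beside 53.7% of all genes, and 1, ATF3, rose more than 2-fold, beside 1.36%. The difference was above 1 in 11 members, beside 3.64% of all genes, and below -1 in 0, beside 2.68%. The median stayed between 0.59 and 0.76 under each alternative tried, and by FPKM it was 0.64 beside -0.08 for all genes.

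The promoters of list members that hold an element of letters known from ATF4 target genes are shown because the members moved together. The letters TGATGNAA (N for any base, both strands) are those of the C/EBP-ATF element. Of the 39 members, 33 were matched to a RefSeq promoter (GRCh38.p14, 250 bases before to 50 after the start), and 9 of these, or 27.3%, held the letters: AARS, ASNS, ATF3, CHAC1, MARS, NARS, SLC3A2, SLC7A1 and TARS. Among all 27305 promoters of this length 1003, or 3.67%, held them. The 4 windows with the largest differences are given from 5′ to 3′ on the strand of the gene, with the matched letters in capitals: ATF3 at chr1:212565157-212565456 (+), CHAC1 at chr15:40953221-40953520 (+), SLC7A1 at chr13:29595639-29595938 (-) and ASNS at chr7:97872359-97872658 (-).
ATF3: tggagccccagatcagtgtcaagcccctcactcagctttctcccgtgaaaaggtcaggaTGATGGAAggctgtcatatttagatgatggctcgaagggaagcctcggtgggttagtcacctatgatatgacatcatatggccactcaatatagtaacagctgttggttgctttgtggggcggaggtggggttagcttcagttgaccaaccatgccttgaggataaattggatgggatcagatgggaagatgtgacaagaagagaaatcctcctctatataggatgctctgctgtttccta
CHAC1: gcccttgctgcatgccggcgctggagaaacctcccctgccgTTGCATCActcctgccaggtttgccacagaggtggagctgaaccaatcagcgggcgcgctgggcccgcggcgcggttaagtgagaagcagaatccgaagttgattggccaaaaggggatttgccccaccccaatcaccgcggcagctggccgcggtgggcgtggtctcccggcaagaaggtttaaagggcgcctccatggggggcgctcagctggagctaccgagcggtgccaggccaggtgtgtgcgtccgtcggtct
SLC7A1: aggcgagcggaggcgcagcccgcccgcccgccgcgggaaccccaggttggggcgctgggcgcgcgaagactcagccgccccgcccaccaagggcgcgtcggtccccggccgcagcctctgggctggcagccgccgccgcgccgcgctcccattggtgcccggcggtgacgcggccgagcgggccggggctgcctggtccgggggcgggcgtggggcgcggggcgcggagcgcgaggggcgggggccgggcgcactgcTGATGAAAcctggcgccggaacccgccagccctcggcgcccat
ASNS: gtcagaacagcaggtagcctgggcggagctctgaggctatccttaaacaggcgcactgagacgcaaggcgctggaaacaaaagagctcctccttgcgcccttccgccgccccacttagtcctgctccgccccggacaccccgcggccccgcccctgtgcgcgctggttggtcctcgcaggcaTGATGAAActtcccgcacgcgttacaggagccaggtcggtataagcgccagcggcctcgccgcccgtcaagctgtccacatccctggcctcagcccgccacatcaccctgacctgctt
The match began 191 bases before the start in ATF3, 209 in CHAC1 (on the other strand) and 68 in ASNS, and 7 bases after it in SLC7A1. Of the 326 promoters of genes with a difference above 1, 11 (3.37%) held the letters, and of the 227 of genes below -1, 4 (1.76%), beside 1.51% of the 8735 genes compared that were matched. A match is a run of letters and not a measured binding site, and the share in the list describes its members and not their response.

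The 11 transcription factors and regulators of the list, grouped after their values were seen, had a median difference of 1.71, beside 0.05 for all genes. The difference was above 1 in 8 of them, beside 3.64% of all genes. SESN2 (ENSG00000130766, chr1:28259527-28282491), a leucine sensor of the mTORC1 pathway, was at 19 and 33.9 CPM in SW1990 and at 267 and 67.1 CPM in PANC-1. The unirradiated PANC-1 library was the highest, with a difference of 2.83 (2.63 to 3.04) and 2.70 by FPKM. DDIT4, an inhibitor of mTORC1 signalling, was at 20.4 and 23.9 CPM in SW1990 and fell from 351 to 107 CPM in PANC-1. TRIB3, a pseudokinase that restrains ATF4, was at 67 and 55.7 CPM and fell from 182 to 46.3 CPM. CHAC1, which degrades glutathione, was at 7.03 and 7.02 CPM and fell from 58.9 to 18.7 CPM, and DDIT3, the transcription factor CHOP, was at 6.30 and 7.34 CPM and fell from 63.9 to 26.5 CPM. All 3 of these genes were near their starting level in SW1990 and more than 2-fold lower in PANC-1. CEBPB, a transcription factor that partners with ATF4, was at 8.49 and 14.0 CPM in SW1990 and fell from 65.0 to 30.9 CPM in PANC-1. PPP1R15A, the regulatory subunit of the phosphatase that restores eIF2, was at 66.4 and 93.9 CPM and fell from 174 to 72 CPM. ATF4 itself was at 406 and 380 CPM in SW1990 and at 522 and 320 CPM in PANC-1, a difference of 0.61. VLDLR, a lipoprotein receptor, had 1.39 by counts and -0.16 by FPKM.

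The enzymes, transporters and tRNA synthetases of the list differed less and in the same direction, as a grouping made after their values were seen. The 9 aminoacyl-tRNA synthetases had a median difference of 0.47, from 0.15 in NARS to 0.89 in WARS. Of them, 0 were beyond 1 or -1, beside 3.64% of all genes above 1 and 2.68% below -1. The 6 amino acid transporters had a median of 0.72, with SLC7A5 at 0.85 and SLC7A11, the cystine carrier, at 0.70. Among 9 enzymes of amino acid synthesis the median was 0.74. CTH, which makes cysteine, was at 4.37 and 6.44 CPM in SW1990 and fell from 11 to 4.44 CPM in PANC-1, a difference of 1.86. ASNS, the asparagine synthetase, was at 64.4 and 51.2 CPM and fell from 182 to 89.4 CPM, a difference of 0.69. PHGDH and PSAT1, of serine synthesis, differed by 0.82 and 0.96. ALDH18A1, of proline synthesis, was the exception, at 234 and 244 CPM in SW1990 and 92.1 and 109 CPM in PANC-1.

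Before radiation most of these genes were higher in PANC-1. In the unirradiated libraries 36 of the 39 were higher in PANC-1 and 24 of them more than 2-fold, with a median log2 ratio of PANC-1 to SW1990 of 1.36. In the irradiated libraries 25 were higher, 9 more than 2-fold, with a median of 0.52. In each gene the change of this ratio after radiation is the difference of the responses with its sign turned. The narrower gap is therefore not a separate observation. Over all 11159 genes the medians of this ratio were 0.06 and 0.02. Of these genes, 5922 were higher in PANC-1 without radiation, 1730 of them more than 2-fold. After radiation 5712 were higher in PANC-1, 1560 of them more than 2-fold. The summed level of the 39 genes was 5374 and 5363 CPM in SW1990 and 11133 and 6695 CPM in PANC-1. CBS, STC2 and NUPR1 were below the minimum in SW1990, with 0 counts of CBS and STC2 in both libraries, and had 2573 and 1387, 14431 and 7081, and 1073 and 237 counts in PANC-1.

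**Figure D4:**
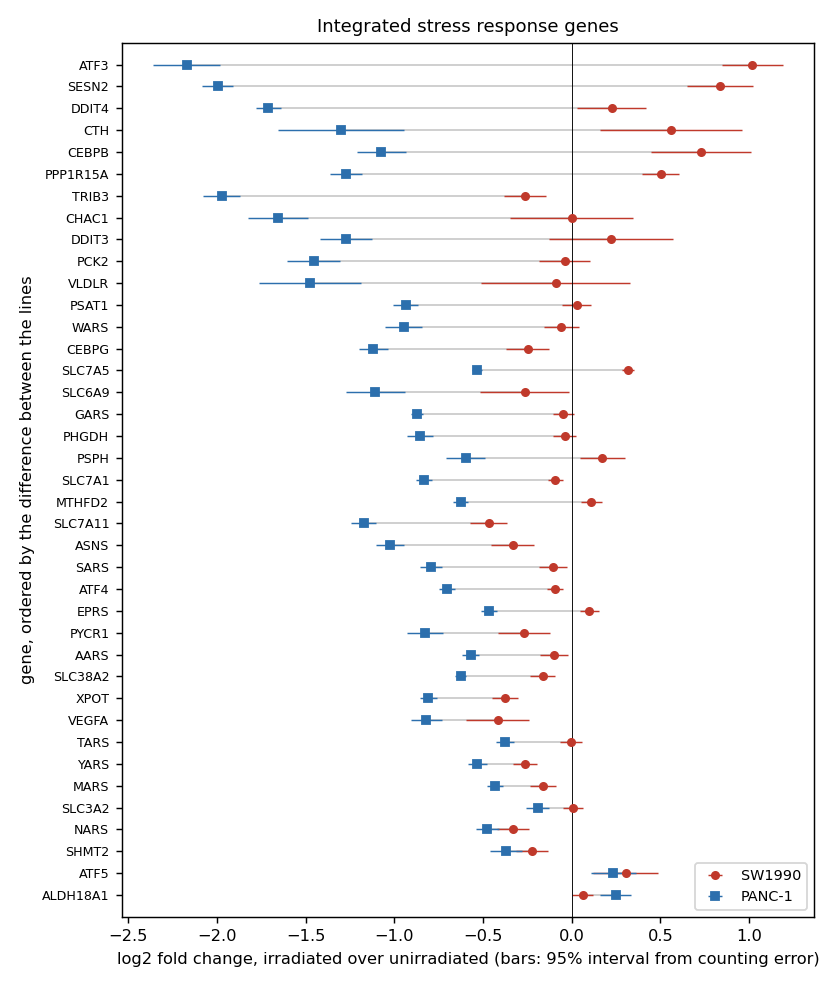
Log2 fold change after radiation of the 39 integrated stress response genes in SW1990 (red circles) and PANC-1 (blue squares), ordered by the difference between the lines, with 95% intervals from counting error. PANC-1 lies to the left of SW1990 in 38 genes and below 0 in 37, all but ATF5 and ALDH18A1.

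Of 30 endoplasmic reticulum chaperones and unfolded protein response genes compared, 21 had a difference above 0, beside 55.9% of all genes, with a median of 0.22 beside 0.05 for all genes, and 3 were above 1, SEC61A1, ERN1 and HYOU1, beside 3.64% of all genes. HSPA5, the main chaperone of this compartment, was at 722 and 749 CPM in SW1990 and at 1387 and 721 CPM in PANC-1. ERN1, the stress sensor IRE1, differed by 1.41 by counts and 0.35 by FPKM, and HYOU1, another chaperone, by 1.14 and 0.81.

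Targets of p53 had the higher response in SW1990. Of 46 listed genes 39 were compared. Their log2 fold changes had a median of 0.37 in SW1990. There 35 members were above 0, beside 53.7% of all genes, and 4 rose more than 2-fold, beside 1.36%. In PANC-1 the median was -0.12, with 16 members above 0, beside 5166 of all 11159 genes. More than 2-fold up in PANC-1 were 0 members, beside 1.3% of all genes. The median of PANC-1 depended on the measure and was 0.06 by FPKM, beside 0.05 for all genes. The difference was above 0 in 29 members, beside 55.9% of all genes, with a median of 0.42 beside 0.05 for all genes by counts, and 0.10 beside -0.08 by FPKM. It was above 1 in 8 members, beside 3.64% of all genes, and below -1 in 0, beside 2.68%. CDKN1A (ENSG00000124762, chr6:36676460-36687339), the cell cycle inhibitor p21, rose from 64 to 211 CPM in SW1990 and was at 59.8 and 39.9 CPM in PANC-1, a difference of 2.31 (2.15 to 2.46). BBC3, the pro-apoptotic protein PUMA, rose from 5.52 to 12.6 CPM in SW1990 and was at 5.69 and 3.32 CPM in PANC-1. PLK2, a kinase of the damage response, rose from 21.8 to 71.1 CPM and was at 77 and 83.2 CPM in PANC-1, a difference of 1.59 by counts and 0.79 by FPKM. GDF15, a secreted stress cytokine, was at 357 and 462 CPM in SW1990 and fell from 400 to 184 CPM in PANC-1. The p53 inhibitor MDM2 was at 235 and 389 CPM and at 143 and 167 CPM, a difference of 0.50 by counts and -0.14 by FPKM. SESN2 is on both the p53 and the stress response list, and without it the p53 median was 0.40 over 38 genes. BTG2, an antiproliferative p53 target below the minimum, had 51 and 525 counts in SW1990 and 32 and 12 in PANC-1. SPATA18 had 49 and 139 counts in SW1990 and 0 in both PANC-1 libraries.

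Apoptosis regulators outside this list included PMAIP1 (NOXA), at 7.03 and 11.7 CPM in SW1990 and 23.8 and 15.8 CPM in PANC-1, and XIAP, an inhibitor of caspases, at 53.2 and 26.8 CPM and at 149 and 28.9 CPM. The whole list of 35 apoptosis regulators, which holds BBC3 and other p53 targets, had a median of 0.18 beside 0.05 for all genes, with 5 above 1 and 1, BIRC3, below -1, beside 3.64% and 2.68% of all genes. By FPKM, XIAP differed by 0.56 and BCL2L11, the protein BIM, by 0.45, inside the limit.

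Most immediate-early genes above the count minimum differed in the same direction. Of 38 listed genes 28 were compared, 23 with a difference above 0 and a median of 0.57 beside 0.05 for all genes, from a median of 0.31 in SW1990 and -0.30 in PANC-1. Above 0 were 55.9% of all genes. The difference was above 1 in 6 members and below -1 in 1, beside 3.64% and 2.68% of all genes. FOSL1, an AP-1 subunit, rose from 17.5 to 38.5 CPM in SW1990 and was at 161 and 119 CPM in PANC-1. IER2 rose from 29.4 to 65.9 CPM in SW1990 and was at 122 and 90.5 CPM in PANC-1. JUN, another AP-1 subunit, was at 78.5 and 71.9 CPM in SW1990 and fell from 430 to 172 CPM in PANC-1. DUSP5, a phosphatase that restrains ERK, was at 25.4 and 40.6 CPM and fell from 156 to 76.8 CPM. EGR1 went the other way, at 36.9 and 52.9 CPM in SW1990 and rising from 2.75 to 15.3 CPM in PANC-1, a difference of -1.95 (-2.38 to -1.53). ATF3 belongs to both this list and the stress response list, and without it the median was 0.56 over 27 genes. Several of the 10 members below the minimum went the other way, with counts higher after radiation in PANC-1 relative to SW1990 in FOS, FOSB, NR4A1, NR4A2, NR4A3 and DUSP2. FOS, an AP-1 subunit, had 152 and 118 counts in SW1990 and 11 and 33 in PANC-1. NR4A1, a nuclear receptor, had 351 and 510 counts in SW1990 and 22 and 51 in PANC-1. In the main direction, MYC, a growth-promoting transcription factor, had 94 and 505 counts in SW1990 and 78 and 45 in PANC-1. DUSP4, a phosphatase of the same family as DUSP5, had 374 and 614 counts in SW1990 and 22 and 21 in PANC-1.

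Of 27 YAP and TEAD targets 21 were compared, 18 with a difference above 0, beside 55.9% of all genes, and a median of 0.61 by counts and 0.31 by FPKM, beside 0.05 and -0.08 for all genes. Their log2 fold changes had medians of 0.20 in SW1990 and -0.29 in PANC-1, and ANKRD1 was the only member beyond 2-fold in either line. ANKRD1 and TGFB2 were above 1, beside 3.64% of all genes, and AJUBA was below -1, beside 2.68%. By FPKM TGFB2 was at 0.87 and AJUBA at -0.90, inside the limit. CYR61, a matricellular protein, was at 35.5 and 40.8 CPM in SW1990 and at 1303 and 783 CPM in PANC-1, a difference of 0.94, and CTGF differed by 0.19. CYR61 and CTGF are on the immediate-early list too. AXL and AMOTL1 were below the minimum, with 38 and 48 counts of AXL in SW1990 and 14409 and 12060 in PANC-1.

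Genes of cholesterol synthesis were at a median log2 fold change of 0.20 (SW1990) and -0.30 (PANC-1). Of the 23 compared, 19 had a difference above 0, beside 55.9% of all genes. The median difference was 0.42 by counts and 0.29 by FPKM, beside 0.05 and -0.08 for all genes. It was above 1 in 1 member, EBP, a sterol isomerase, beside 3.64% of all genes. EBP was at 25.6 and 44.5 CPM in SW1990 and 32.1 and 24.1 CPM in PANC-1. HMGCS1, an early enzyme of the pathway, was at 40.8 and 60.8 CPM in SW1990 and at 39.2 and 33.4 CPM in PANC-1. It differed by 0.81 by counts and 0.46 by FPKM, and its log2 fold change in SW1990 was 0.58 by counts and 0.10 by FPKM.

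The mitochondrially encoded genes also differed. Of 13 genes, 12 had a difference above 0, beside 55.9% of all genes, with a median of 0.63 beside 0.05 for all genes and 0 beyond 1, and MT-ND6, the member on the light strand, was at -0.30. In SW1990 all 13 had a log2 fold change above 0, with a median of 0.32, beside 5992 of all 11159 genes above 0. In PANC-1 the median was -0.25 and 2, MT-ATP6 and MT-ND6, were above 0, beside 5166 of all genes. MT-CO1, a subunit of cytochrome c oxidase, was at 8512 and 10133 CPM in SW1990 and at 9156 and 6969 CPM in PANC-1. All rows of the mitochondrial genome took 4.42% and 5.56% of the counts in SW1990 and 3.30% and 2.99% in PANC-1, and leaving these rows out of the library sizes left the median at 0.63. MT-ATP6 rose more than 2-fold in both lines on its own, but summed with MT-ATP8 and MT-CO3, which it overlaps, it had log2 fold changes of 0.86 and 0.17. Without them in the library sizes the counts of 705 and 27 genes were the same, and the medians of the stress response, p53 and YAP lists stayed at 0.74, 0.42 and 0.61.

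Replication-dependent histone genes and genes of DNA replication had the lower response in SW1990. Of 53 histone genes compared, 50 had a difference below 0, beside 44.1% of all genes, with a median of -0.71 beside 0.05 for all genes, 13 below -1 (2.68% of all genes) and 1 above 1 (3.64%). Their median log2 fold change was -1.20 in SW1990, where 0 were above 0, and -0.47 in PANC-1, where 6 were above 0. Of all 11159 genes, 5992 were above 0 in SW1990 and 5166 in PANC-1. HIST1H3B was at 310 and 133 CPM in SW1990 and at 282 and 268 CPM in PANC-1, and HIST1H2AD at 91 and 5.97 CPM and at 20.3 and 5.67 CPM. Summed with the gene it overlaps on its strand, HIST1H2AD went from a difference of -2.09 to -0.56, inside the limit. Most histone genes of this kind share sequence and carry no poly(A) tail, and how counts were split between near-identical copies is uncertain. HIST1H2BN, below the minimum in 1 library, went the other way, with 64 and 1004 counts in SW1990 and 2250 and 41 in PANC-1. HIST2H4B, the member above 1, differed by 1.26 by counts and -0.24 by FPKM. The replication list differed by a smaller amount: of 55 S-phase genes 45 had a difference below 0, beside 44.1% of all genes, with a median of -0.29 beside 0.05 for all genes and 0 beyond 1. PCNA, the sliding clamp of DNA polymerases, had log2 fold changes of -0.16 in SW1990 and 0.32 in PANC-1, and MCM5, of the replicative helicase, of -0.50 and 0.07.

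Letters known from other factors were searched in the same windows. GGAATG, the core of TEAD elements, stood in 6 of 15 matched promoters of YAP and TEAD targets and in 14% of all promoters. TTTNNCGC, the core of E2F elements, stood in 24 of 45 promoters of S-phase genes and in 6.90% of all promoters. TGACGTCA, the cyclic AMP response element, stood in 2 of 22 promoters of immediate-early genes and in 1.98% of all. A share within a list describes its members and not the difference between the lines. Among the genes with a difference above 1 the shares were 11.7%, 7.98% and 3.68%, and among those below -1 they were 9.25%, 7.05% and 2.20%, beside 10.2%, 11.4% and 3.65% of all genes compared that were matched. Both strands were searched, and matches of TGATGNAA and GGAATG shared bases in 19 promoters.

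**Figure D5:**
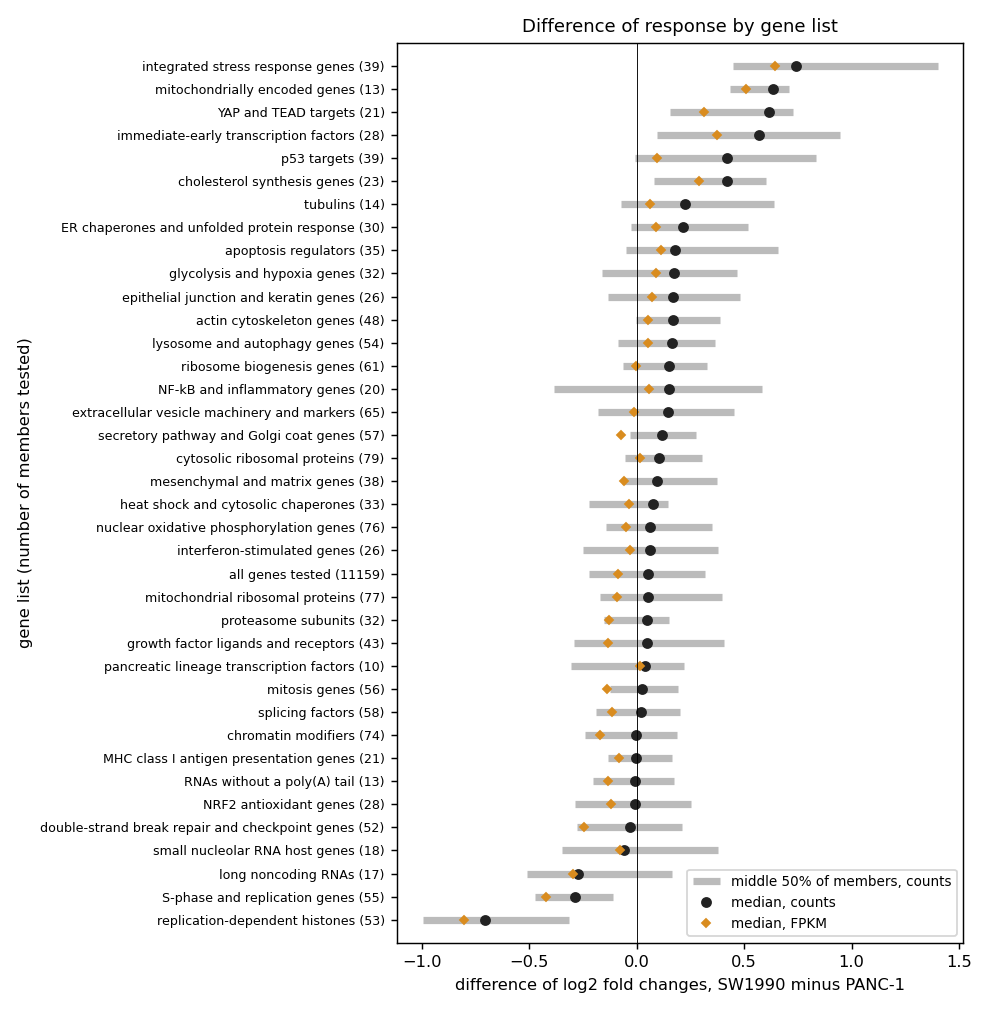
Median difference of the response, SW1990 minus PANC-1 on the log2 scale, for each gene list with at least 10 members compared, from counts (black circles, with the middle 50% of the members in grey) and from FPKM (orange diamonds). Integrated stress response genes lie at the top at 0.74 and replication-dependent histones at the bottom at -0.71, with all genes at 0.05.

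Most other gene lists lay near the median of all genes. The 17 long noncoding RNAs had a median of -0.27, with 7 above 0, beside 55.9% of all genes. Their median turned to 0.13 at a minimum of 200 counts and to 0.14 among genes without overlaps. The 14 tubulins had a median of 0.22 by counts and 0.06 by FPKM, with 10 above 0, beside 55.9% of all genes. The median difference was 0.06 for 26 interferon-stimulated genes, 0.10 for 79 cytosolic ribosomal proteins, 0.05 for 77 mitochondrial ribosomal proteins, 0.02 for 58 splicing factors, -0.03 for 52 genes of double-strand break repair and checkpoints, -0.01 for 28 NRF2 antioxidant genes and 0.15 for 65 genes of extracellular vesicle machinery, which by FPKM had -0.01. Scaling by total counts moved these medians and that of all genes alike. Among them single genes differed. RAD50, of the break-sensing complex, had log2 fold changes of 0.99 in SW1990 and -0.11 in PANC-1, but 0.14 and -0.68 by FPKM. Summed with its same-strand partner, RAD50 went from a difference of 1.1 to 0.39. NFE2L2 was at 46.4 and 89.8 CPM in SW1990 and fell from 225 to 75.9 CPM in PANC-1. Of the 28 antioxidant genes, 13 had a difference above 0, beside 55.9% of all genes, and NFE2L2 alone was beyond 1. CLDN1, a tight junction protein, had log2 fold changes of 0.95 and -1.30, and HBEGF and EGFR, a ligand and its receptor, of 0.81 and -0.91 and of 1.21 and -0.43. By FPKM those of EGFR were 0.32 and -0.37, a difference of 0.69 against 1.64 by counts. ENO2, a glycolytic enzyme, had -0.97 and 0.95, and SLC16A1, a lactate carrier, -1.04 and 0.30. Among vesicle genes SNAP23, a membrane fusion protein, and ANXA1 differed by 1.68 and 1.24 by counts and by 0.90 and 1.33 by FPKM. The 299 ZNF genes, which code for zinc finger proteins, held 34 genes beyond the limit, or 11.4%, beside 6.01% of the 9946 other protein-coding genes. Their median counting error was 0.165 against 0.105, and 17 of the 34 were also beyond 1 or -1 by FPKM.

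Of 14 genes taken from those that the study followed by other assays, the 11 that passed the count minimum were within the limit. CD9, CD63 and RAB27A, of exosomes and their release, had differences of 0.00, 0.13 and 0.01, TSG101 of 0.57 and CD81 of -0.45 by counts and -0.95 by FPKM. E2F3, a transcription factor of the G1/S transition, was at 21.7 and 29.9 CPM in SW1990 and at 36.3 and 29.8 CPM in PANC-1, a difference of 0.75 (0.51 to 0.99). HMGA2, a chromatin protein, differed by 0.18 by counts and -0.14 by FPKM, and MKI67, a proliferation marker, by 0.10 and -0.03. ATM, the kinase activated by DNA breaks, differed by 0.31 by counts and -0.63 by FPKM, and H2AFX by -0.37 by counts. PTGS2, the prostaglandin synthase COX-2, was below the minimum, with 153 and 255 counts in SW1990 and 14 and 2 in PANC-1, and ALDH1A1 had 0 and 4 counts in SW1990 and 0 in both PANC-1 libraries, where a count of 0 allows up to 0.140 CPM without and 0.153 CPM with radiation (3 counts per library).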

How the data were processed

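RNA of 4 cultures of cell lines, 1 per line and treatment, was analysed from a table of 59263 rows. Per the labels, the authors used CASAVA 1.8, FastQC 0.11.2, Trimmomatic 0.36, HISAT2 2.0, StringTie 1.3.3b and DESeq2 1.12.4 with GRCh38. The authors deposited raw counts, whose counting tool is not given in the sources used here. The FPKM values, which the authors deposited beside them, are scaled to transcript length and library size. The 1089 loci that name no gene (0.453% to 0.635% of the counts) were left out, and 27 names turned into dates were restored. Of the Ensembl rows, 57836 were found in GENCODE 29, 96.9% with the same coordinates.

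Library sizes were scaled by TMM over the 4 libraries (edgeR 4.0.16, R 4.3.3; DESeq2 1.42.0 for alternative size factors), with factors of 1.08, 1.03, 0.919 and 0.978 for unirradiated and irradiated SW1990 and PANC-1. No pseudocount was added. Intervals are normal intervals from Poisson counts. A difference beyond 1 or -1 was called, with no p-value, since there is 1 library per condition. The calculation was tested on simulated data. Genes overlapping others were marked at 10 or more counts in any library.

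The members and the 39 gene lists were chosen with earlier results of these data known. The naming rule took the 12 largest differences in each direction with an FPKM difference of the same sign beyond 1, up to 10 opposite movers of each orientation that were opposite by FPKM, from each list the 4 members (or fewer) that differed most, and 14 genes followed by the study. It gave 184 genes, of which a part is named. The other opposite movers and list members above the limit, AHNAK, AK4, FAM217B, DMD, MYO5B and the genes below the count minimum were named after their values were seen. Scaling, the count minimum, FPKM, the limits, an assumed spread between cultures, trends with expression, GC content and length, and overlaps were varied. Some genes are not reported here.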

Additional observations from a re-analysis of the deposited data

Results flagged for a closer look

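None of the results here has a replicate check, and none of the differences between the lines was tested. By counts, 0.4 or more separated the lines in these lists, whose medians had opposite signs: p53 targets (0.42), mitochondrially encoded genes (0.634), cholesterol synthesis genes (0.419), immediate-early transcription factors (0.567) and YAP and TEAD targets (0.615). By FPKM the median differences were 0.096, 0.51, 0.29, 0.37 and 0.31 in the same order. The p53 medians by FPKM were 0.30 in SW1990 and 0.06 in PANC-1, so their signs were not opposite. Single genes that rose in 1 line and fell in the other numbered 27 at 2-fold. The widest of them by counts were CCDC137 (4.60) and JRK (3.64), higher in SW1990, and MRFAP1 (-4.83), AC020915.6 (-5.29) and RAB43 (-5.69), lower in SW1990. Of these, RAB43 and AC020915.6 share their strand and position with other expressed genes, and by FPKM CCDC137 differed by 2.78 and JRK by 0.99.

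Loci that name no gene were not part of the comparison. Of 196 such loci with at least 50 counts in each library, 23 (11.7%) had a difference beyond 1 or -1, 13 above and 10 below, and their identity was not analysed here.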

How the results depend on the processing

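With 1 library per condition nothing here measures the spread between cultures, and no replicate could be left out. No paired analysis was possible because the labels give no replicate numbers and each group has 1 library. The 705 genes beyond a factor of 2 became 1498 at a minimum of 10 counts, 343 of 8490 genes at 200 counts, 350 of 5373 genes that overlap no other expressed gene (6.51%, beside 6.14% of the others), 2186 at a limit of 1.5-fold and 97 at a difference of 2. With an assumed coefficient of variation between cultures of 0.2 or 0.4 added to the counting error, 433 and 59 had an interval that excluded 0. The 27 genes that moved 2-fold in opposite directions became 59 at 10 counts, 41 at 20, 13 at 200, 13 without overlaps and 125 at 1.5-fold. By FPKM there were 12, with pseudocounts of 0.1 and 1 there were 12 and 7. The cause was not tested.

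The median of the p53 targets was 0.096 by FPKM, and that of the S-phase genes was -0.43 by total counts and -0.42 by FPKM. Total counts and FPKM moved the median of all genes too, from 0.05 to -0.09 and -0.08, and relative to it the S-phase median stayed at -0.34. In all, 21 list medians changed sign under some alternative, 12 under FPKM and 12 under total counts, none over 0.27 in size. Among those that fell below 0 were cytosolic ribosomal proteins by total counts (-0.042), ribosome biogenesis genes by FPKM (-0.00092) and extracellular vesicle machinery by FPKM (-0.012). Others were mesenchymal genes by total counts (-0.050) and FPKM (-0.057), and secretory pathway genes by total counts (-0.029) and FPKM (-0.072). Mitosis genes fell to -0.12 by total counts and -0.14 by FPKM. By FPKM, mitochondrial ribosomal proteins (-0.094), proteasome subunits (-0.13), splicing factors (-0.11), growth factor genes (-0.14) and nuclear oxidative phosphorylation genes (-0.048) were below 0 as well. Scaling by total counts shifts all genes alike and leaves each list's distance from them as it was. Summing same-strand overlapping genes turned the difference of RPL36A-HNRNPH2 to -0.11, RNU2-2P to 0.24, SNHG20 to 0.24, AP002990.1 to 0.19 and AC020915.6 to 0.038. Of the genes taken by the naming rule, these 5 were the ones beyond 1 or -1 that changed sign. Outside that rule, AK4 (-0.15), FAM217B (-1.0), VLDLR (-0.16) and HIST2H4B (-0.24) turned below 0 by FPKM. The medians of the stress response, immediate-early, YAP and TEAD, p53, cholesterol, mitochondrially encoded, histone and S-phase lists kept their sign under each alternative run.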
